A study of Mus musculus with 35 samples.

Results

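The genes described here are 37 interferon-stimulated genes, taken by symbol from a table of RNA-seq read counts for 49671 annotated genes. All 37 were present, and all 37 were among the 17166 genes with enough counts to be tested. They were chosen as genes that cells switch on when they sense interferon, with earlier results of these data known. Mouse lineage-negative (lin-) hematopoietic stem and progenitor cells from bone marrow carried either a control vector or one of 6 forms of the leukemia fusion protein NUP98-HOXA9, and total RNA was sequenced from 35 libraries, 5 in each of 7 groups. The design asks how the expression of the recipient cells depends on the phenylalanine-glycine (FG) motifs of the NUP98 part and on DNA binding by the HOXA9 part.

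The control group, Empty, received the vector with mCherry alone, and every other group received the same vector with a fusion tagged with green fluorescent protein (the "G" of each name). G-NHX9 is the full-length fusion, which the study also writes as G-NHA9. G-NHX9-8FA has 8 phenylalanines changed to alanine, and G-NHX9-21FGAA has 21 FG pairs changed to alanine. G-NHX9-midi keeps a C-terminal stretch of the NUP98 part, and G-NHX9-midi-21FGAA is that shorter form with its FG pairs changed. G-NHX9-DDNA is full length with a homeodomain changed to weaken DNA binding. By number of intact FG motifs, G-NHX9 and G-NHX9-DDNA stand highest, followed by G-NHX9-8FA, G-NHX9-midi, G-NHX9-21FGAA and, with none, G-NHX9-midi-21FGAA. Donor mice were of the C57Bl/6 strain and, by their labels, 8 weeks old, apart from 1 library at 9 weeks and 1 at 10 weeks in Empty and 1 at 11 weeks in G-NHX9. In all groups the genes were brought in by lentivirus, cells were sorted for the fluorescent proteins, and they then grew for 1 week in Methocult medium with 10 ng/mL GM-CSF, a cytokine that drives myeloid growth. A library is therefore a mixed culture of maturing cells that all went through viral transduction. Nothing in the labels ties the 5 libraries of a group to separate animals or cultures, so that p-values measure the spread between libraries.

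Type I interferons signal through the IFNAR receptor and the kinases JAK1 and TYK2. These activate a complex, ISGF3, to which STAT2 and IRF9 belong and which binds a short element rich in GAAA, the interferon-stimulated response element (ISRE), in front of its target genes. Many of those targets are antiviral: they sense viral RNA, block its translation, degrade it or hold budding virus at the cell surface, and some, such as Usp18, switch the response off again. Hematopoietic stem and progenitor cells are known to keep part of this program on without infection. Interferon gamma has a receptor of its own, and Irf1 and the genes of MHC class I presentation are among its best known targets.

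Promoters of the members often carried the letters of an ISRE. A promoter sequence was found for 29 of the 37 members in the RefSeq table (build GRCm38.p6). GAAA, any 2 bases and GAAA again, on either strand, occurred within the 250 bases upstream of the gene start in 12 of these 29 members, or 41.4%. Among all 27025 genes with a promoter in the table the share was 3.46%, or 936 genes. The 6 stretches below are shown because they hold this core and belong to members that the results turn on. Stat2 was taken by the rule for named genes, and the other 5 were picked after their values had been seen. Each is written 5′ to 3′ on the gene's strand, with the core in capitals. It reads as GAAA on that strand and as TTTC where it lies on the other.

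Stat2 (chr10:128270251-128270310, plus strand): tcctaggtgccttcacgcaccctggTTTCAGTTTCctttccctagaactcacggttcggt

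Ifit1 (chr19:34640779-34640838, plus strand): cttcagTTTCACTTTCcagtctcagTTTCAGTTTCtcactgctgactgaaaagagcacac

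Oas3 (chr5:120777700-120777759, minus strand): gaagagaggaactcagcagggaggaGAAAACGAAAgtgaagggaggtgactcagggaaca

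Isg15 (chr4:156200850-156200909, minus strand): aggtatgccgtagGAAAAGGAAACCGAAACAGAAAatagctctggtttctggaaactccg

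Rsad2 (chr12:26456538-26456597, minus strand): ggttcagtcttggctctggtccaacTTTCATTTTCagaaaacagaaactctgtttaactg

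Cxcl10 (chr5:92349068-92349127, minus strand): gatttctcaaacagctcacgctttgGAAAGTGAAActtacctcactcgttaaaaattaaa

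Ifit1 holds 2 cores in its window and Isg15 holds 3 that overlap. In Stat2 the core began 222 bases before the gene start, and in Isg15 it began 66 bases before. The other members with a core were Ifit3, Ifit3b, Oas1a, Oas1g, Bst2 and Trim30a. A match is only a description of the letters in this window.

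The interferon genes themselves gave almost no reads. Summed over 21 ligand genes (Ifnb1, the alpha family, Ifnk, Ifne, Ifnz, Ifng and the lambda genes), libraries held between 1 and 18 counts out of totals of 31559914 to 75810659. Ifnb1 reached at most 4 counts in any library and Ifng at most 6, and Ifnz, with at most 10, was the highest. None of the 21 passed the filter on low counts, so no change in a ligand was detectable at this depth.

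Levels are given as CPM, read counts scaled to library size with TMM factors, which correct for differences in library composition. Per kilobase of exon, Ifitm3, a membrane protein that blocks virus entry, was highest in Empty at 198 ± 32 CPM per kb (SD, n = 5), ahead of Bst2, the tether of budding virus, at 79.1 ± 19. The lowest were Ifit3b at 0.376 ± 0.25 and Ifi44 at 0.0639 ± 0.022 CPM per kb.

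A few libraries stood apart from their own group across nearly the whole set of members, and results that rest on them are given with and without them. In G-NHX9-midi-21FGAA, replicate 5 was the highest of the 5 libraries for 36 of 37 members, while it was highest for 21.9% of all genes tested. Its members lay at a median of 2.7 times the mean of the other 4 libraries, and 23 of them were more than 2-fold above it. In G-NHX9-21FGAA, replicate 4 was highest for 34 of 37 members, against 16.9% of all genes, at a median of 2.11 times the other 4. In G-NHX9-8FA, replicate 2 was highest for 32 members, at a median of 1.64 times the others. Empty replicate 3 was highest for 26 members, at a median of 1.37 times. These 4 libraries were picked from the members' own values. In the order given, their totals were 75810659, 66910028, 58576267 and 48061715 counts, against a median of 45464263 over all libraries. The part of depth in their levels was not tested.

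**Figure D1:**
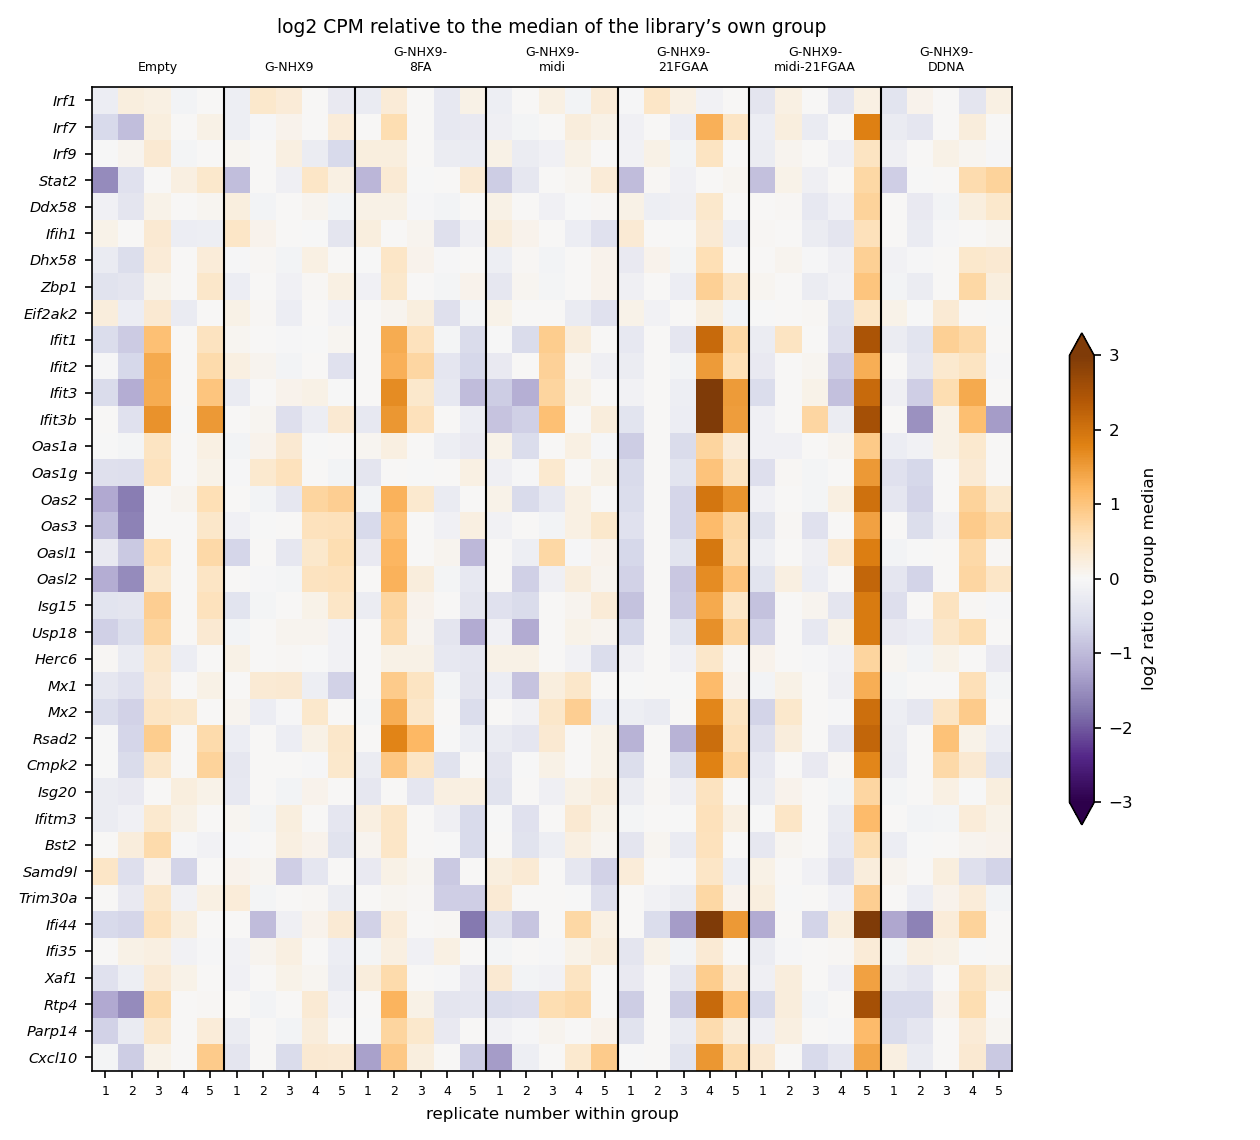
Each square is 1 gene in 1 library, coloured by the log2 ratio of its CPM to the median of the library's own group (colour scale from -3 to 3, ends saturated); columns are the 5 replicates of the 7 groups, rows the 37 genes. The columns for G-NHX9-midi-21FGAA replicate 5 and G-NHX9-21FGAA replicate 4 are high over nearly all genes, and the G-NHX9 columns are close to their group median.

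Averaged over the 37 genes on the log2 CPM scale, G-NHX9 was the most even group, with a mean of 4.15 ± 0.069 (SD, n = 5) and a range of 4.06 to 4.25. G-NHX9-midi was lowest, at 3.11 ± 0.18 with a range of 2.88 to 3.27, so that each of its libraries lay below each library of Empty, whose range was 3.28 to 4.26. Empty stood at 3.77 ± 0.41, G-NHX9-8FA at 3.5 ± 0.39, and G-NHX9-DDNA at 3.71 ± 0.27. The widest groups were G-NHX9-21FGAA at 3.59 ± 0.62 and G-NHX9-midi-21FGAA at 3.82 ± 0.66, whose highest libraries reached 4.55 and 4.98. Group means were lowest in G-NHX9-midi for 23 of the 37 members and highest in G-NHX9 for 23.

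**Figure D2:**
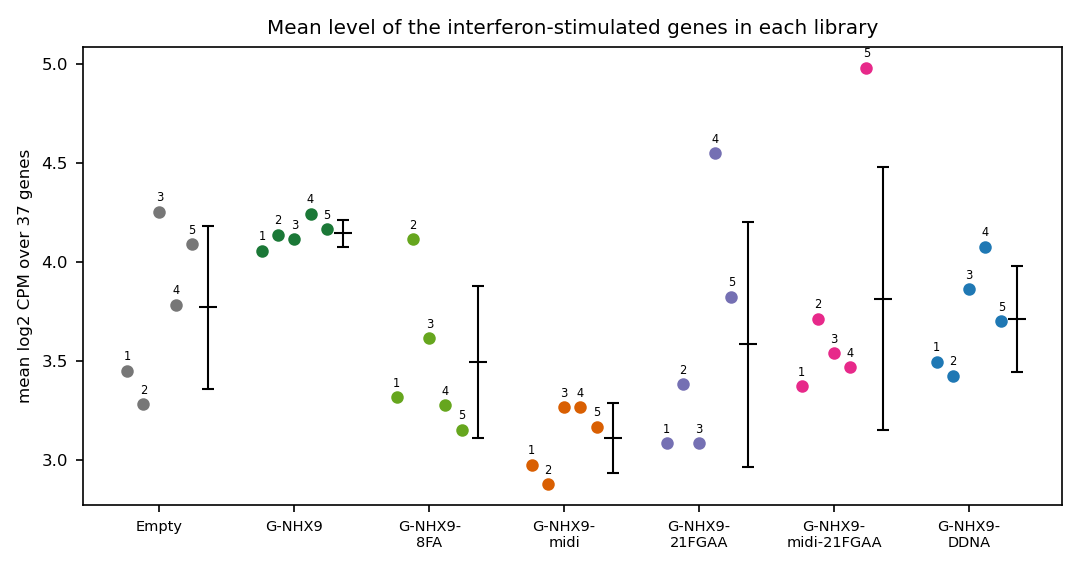
Mean log2 CPM over the 37 genes (vertical axis) for each library, by group (horizontal axis); numbers are replicate numbers, and the bars beside the points give mean ± SD of 5 libraries. The 5 G-NHX9 libraries lie between 4.06 and 4.25 and the 5 G-NHX9-midi libraries between 2.88 and 3.27, without overlap.

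Against Empty, 3 members were higher in full-length G-NHX9 and none was lower. Over all genes tested, 16.9% were called higher and 15.2% lower in this comparison (the quasi-likelihood test of edgeR, p-values adjusted by Benjamini-Hochberg over all 17166 genes; an adjusted p below 0.05 defines a call throughout), so the members' share of 8.11% higher was under the background. Ifitm3 stood at 111, 119, 166, 145 and 130 CPM in Empty and at 325, 302, 367, 313 and 245 CPM in G-NHX9. The groups did not overlap, as for 10.6% of all genes in this direction, and Ifitm3 rose by 1.21 on the log2 scale (SE 0.20, adjusted p = 1.39e-05, n = 5 per group). Dhx58 encodes LGP2, a helicase of the RIG-I family that tunes RNA sensing, and its CPM was 14.3, 12.1, 20.9, 17.1 and 20.4 in Empty and 22.9, 24.1, 21.9, 26.4 and 23.3 in G-NHX9. Each G-NHX9 library exceeded each Empty library, and the log2 fold change was 0.49 (SE 0.17, adjusted p = 0.0231). For Isg20, a 3′ to 5′ exonuclease that degrades viral RNA, Empty held 7.22, 7.03, 8.48, 9.93 and 9.34 CPM and G-NHX9 9.70, 11.9, 11.2, 12.8 and 12.1 CPM. Its groups overlapped by 1 library, with a log2 difference of 0.46 (SE 0.16, adjusted p = 0.025). Without Empty replicate 2, or without G-NHX9 replicate 4, 1 member passed the test in place of 3, and Ifitm3 was the call that every omission of 1 library kept. Without Empty replicate 3, 5 members passed.

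Most of the other members lay slightly higher in G-NHX9 without passing the test: 33 of 37 log2 fold changes were positive, with a median of 0.28 against 0.01 over all genes. Without TMM the median of all genes was itself 0.19 in this comparison, and 9 members were then called higher, so the sign of a small difference here depends on the scaling. In this pair of groups, libraries with the same replicate number deviated together, and once replicate number entered the model as a block Samd9l, a restrictor of myeloid growth, was also called higher (log2 fold change 0.53, adjusted p = 0.0303; 0.51 with adjusted p = 0.0662 without the block).

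**Figure D3:**
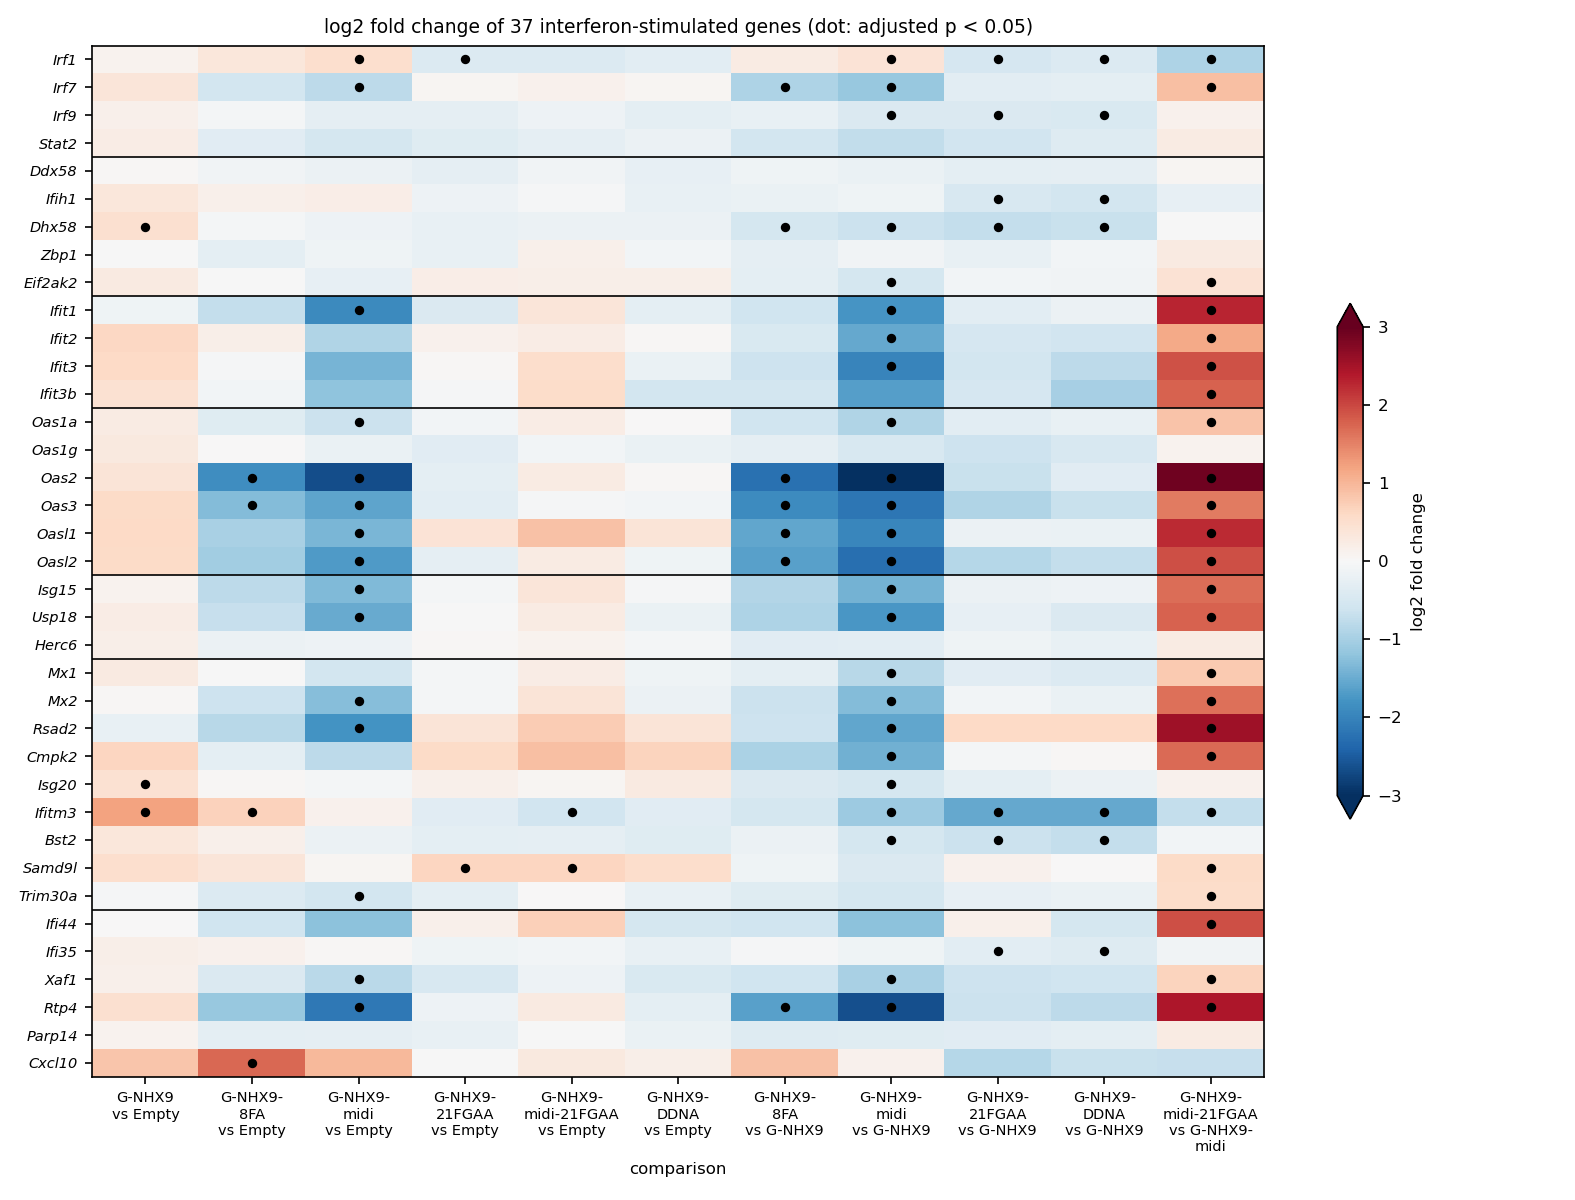
Log2 fold change (colour, -3 to 3, ends saturated) of each of the 37 genes (rows, divided by role) in 11 comparisons (columns); a black dot marks an adjusted p below 0.05 in edgeR's quasi-likelihood test. Dots gather in the columns for G-NHX9-midi against Empty (14 lower, 1 higher), G-NHX9-midi against G-NHX9 (23 lower, 1 higher) and G-NHX9-midi-21FGAA against G-NHX9-midi (22 higher, 2 lower).

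In G-NHX9-8FA against Empty, 2 members were higher and 2 lower, where 13.4% of all genes were called higher and 13.2% lower. Cxcl10, the chemokine that attracts T cells through CXCR3, stood at 2.18, 1.35, 2.50, 2.29 and 4.32 CPM in Empty and at 3.33, 15.6, 9.51, 8.17 and 4.80 CPM in G-NHX9-8FA. The groups overlapped through replicate 5 of Empty, and the log2 fold change was 1.72 (SE 0.42, adjusted p = 0.00245). Ifitm3 held 246, 288, 212, 190 and 142 CPM in G-NHX9-8FA, with a log2 difference of 0.68 (SE 0.20, adjusted p = 0.0087). The 2 members that fell were both 2′-5′-oligoadenylate synthetases, which make the messenger that activates RNase L. Oas3 went from 23.6, 14.7, 46.3, 45.6 and 60.8 CPM in Empty to 8.83, 27.9, 13.4, 12.4 and 15.3 CPM in G-NHX9-8FA. It fell by 1.29 on the log2 scale (SE 0.38, adjusted p = 0.0105), and the Empty libraries themselves were widely spread. Oas2, below the 5 CPM set for full description in this pair, fell by 1.86 (SE 0.50, adjusted p = 0.00495). All 4 calls held when any 1 library was left out. Leaving out G-NHX9-8FA replicate 2, the library with the high members, raised the count of lower members from 2 to 5. In the same comparison 7 of 12 neutrophil markers were higher, while 11 of 12 erythroid, 8 of 11 mast cell and basophil, all 8 eosinophil and all 8 megakaryocyte markers were lower. Of 9 conventional dendritic cell markers 1 was higher and 5 lower, and of 10 stem and progenitor markers 2 were higher and 2 lower. Of 12 macrophage and monocyte markers 2 were higher and 3 lower, and the part of these markers in the differences was not tested.

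The largest set of changes against Empty was in G-NHX9-midi: 14 members fell and 1 rose, where 20.0% of all genes were called lower and 20.5% higher. The median log2 fold change of the 37 members was -0.56, against 0.02 over all genes. For 8 of those that fell and for the 1 that rose, the 5 libraries of one group did not overlap the 5 of the other, as was the case for 13.9% and 13.4% of all genes. In these mixed cultures, fewer cells of a type that expresses a gene and less RNA of that gene per cell cannot be told apart.

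Among the IFIT proteins, which bind foreign RNA and stop its translation, Ifit1 fell. Its CPM was 5.95, 4.98, 18.1, 8.60 and 12.2 in Empty and 2.31, 1.59, 4.25, 2.78 and 2.33 in G-NHX9-midi. All 5 G-NHX9-midi libraries lay below all 5 Empty libraries, with a log2 difference of -1.90 (SE 0.51, adjusted p = 0.00296). The values for Ifit2, Ifit3 and Ifit3b were -0.91, -1.38 and -1.20, with adjusted p from 0.0577 to 0.148.

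In the OAS family, 5 of 6 members fell. Oas2 showed 3.93, 2.85, 9.08, 9.59 and 13.7 CPM in Empty and 1.42, 0.870, 1.06, 1.47 and 1.30 CPM in G-NHX9-midi. With a log2 difference of -2.67 (SE 0.52, adjusted p = 9.53e-05) it was the largest difference of any member in this comparison, and its groups did not overlap. Oas3, at 11.1, 11.97, 11.4, 13.5 and 15.6 CPM in G-NHX9-midi, fell by 1.59 (SE 0.38, adjusted p = 0.00115). Oasl1 (-1.37), Oasl2 (-1.69) and Oas1a (-0.64) also fell, and Oas1g stood at -0.19 with adjusted p = 0.63.

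Isg15, the ubiquitin-like protein that is conjugated to others during the response, had 6.12, 6.20, 14.4, 7.97 and 11.4 CPM in Empty and 2.91, 2.701, 3.93, 4.17 and 4.80 CPM in G-NHX9-midi. Its groups did not overlap, and the log2 fold change was -1.31 (SE 0.40, adjusted p = 0.00902). Usp18, the protease that removes Isg15 and restrains IFNAR signalling, fell by 1.52 (SE 0.42, adjusted p = 0.00394).

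Of the other antiviral effectors, Rsad2 (viperin, which makes a chain-terminating nucleotide) went from 21.6, 13.9, 40.2, 21.8 and 34.4 CPM in Empty to 6.44, 6.03, 9.76, 7.68 and 8.38 CPM. The log2 fold change was -1.78 (SE 0.52, adjusted p = 0.00587), again without overlap. Trim30a, the smallest called decrease, went from 63.7, 52.6, 84.5, 58.8 and 72.5 CPM to 57.1, 46.0, 46.1, 45.3 and 32.7 CPM. It fell by 0.55 (SE 0.19, adjusted p = 0.0213), with overlapping groups. Mx2 (-1.28) fell as well, while Mx1 stood at -0.56 with adjusted p = 0.126. Ifitm3, which had risen in G-NHX9 and G-NHX9-8FA, stood at 143, 108, 144, 182 and 157 CPM in G-NHX9-midi, a log2 fold change of 0.13 with adjusted p = 0.63.

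Rtp4, a receptor-transporting protein that also restricts viruses, ran at 3.38, 2.66, 12.4, 7.77 and 7.93 CPM in Empty and at 0.957, 0.990, 2.11, 2.25 and 1.38 CPM in G-NHX9-midi. Its log2 fold change was -2.15 (SE 0.56, adjusted p = 0.00233), without overlap. Xaf1, which promotes apoptosis, fell by 0.82. Against the direction of these genes, Irf1 rose from 34.2, 46.0, 45.0, 37.3 and 39.5 CPM to 49.3, 55.6, 63.3, 52.3 and 67.9 CPM. Each G-NHX9-midi library was above each Empty library, at a log2 difference of 0.51 (SE 0.15, adjusted p = 0.00517). Irf7, the factor that amplifies the type I response, fell by 0.77 (SE 0.31, adjusted p = 0.0415). Of the 15 calls, 11 held when any 1 of the 35 libraries was left out (Irf1, Ifit1, Oas2, Oas3, Oasl2, Isg15, Usp18, Mx2, Rsad2, Xaf1 and Rtp4). Without G-NHX9-midi replicate 1, Empty replicate 5, G-NHX9-21FGAA replicate 4 or G-NHX9-midi-21FGAA replicate 5, 2 members were higher instead of 1.

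Cell type markers moved in the same cultures, and their part in these differences was not tested. The summed CPM of 12 macrophage and monocyte markers lay between 28703 and 39479 in Empty and between 7423 and 16425 in G-NHX9-midi. 7 of the 12 were called lower and 2 higher. The 8 eosinophil markers summed to 1388 to 1928 CPM in Empty and to 41.9 to 127 CPM in G-NHX9-midi, and all 8 were lower, as were 10 of 12 erythroid and all 8 megakaryocyte markers. Of 11 mast cell and basophil markers 9 were lower, and of 12 neutrophil markers 4 were higher and 3 lower. Of 9 conventional dendritic cell markers 5 were lower and 1 higher, and of 10 stem and progenitor markers 3 were higher and 3 lower. In G-NHX9 the macrophage and monocyte sum was 5979 to 15395 CPM, but 4 of the 12 markers (C1qa, C1qb, C1qc and Ccr2) were called higher than in Empty and 3 (Cd68, Mrc1 and Lyz2) lower, with a median log2 fold change of 0.28 against -0.50 in G-NHX9-midi. The 8 markers of plasmacytoid dendritic cells, the strongest producers of type I interferon, summed to 35.9 to 63.2 CPM in Empty. In G-NHX9-midi they summed to 41.0 to 62.2 CPM. Of these 8, Pacsin1, Tcf4, Spib and Cox6a2 had enough counts to be tested, while Siglech, Ccr9, Klk1 and Ly6d did not. None of the 4 tested was called in G-NHX9-midi. In G-NHX9, 2 of these 4 (Pacsin1 and Tcf4) were called higher than in Empty and none lower, with a median log2 fold change of 0.85. In the same comparison, 7 of 11 mast cell and basophil, 5 of 8 eosinophil and 3 of 8 megakaryocyte markers were lower, and none higher. None of 12 erythroid markers was called. Of 12 neutrophil markers 3 were higher and 1 lower, and of 10 stem and progenitor markers 5 were higher and 1 lower. Of 9 conventional dendritic cell markers 2 were higher and 3 lower. The markers of B, T and NK cells stayed between 4.62 and 33.2 CPM in sum over all 35 libraries.

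**Figure D4:**
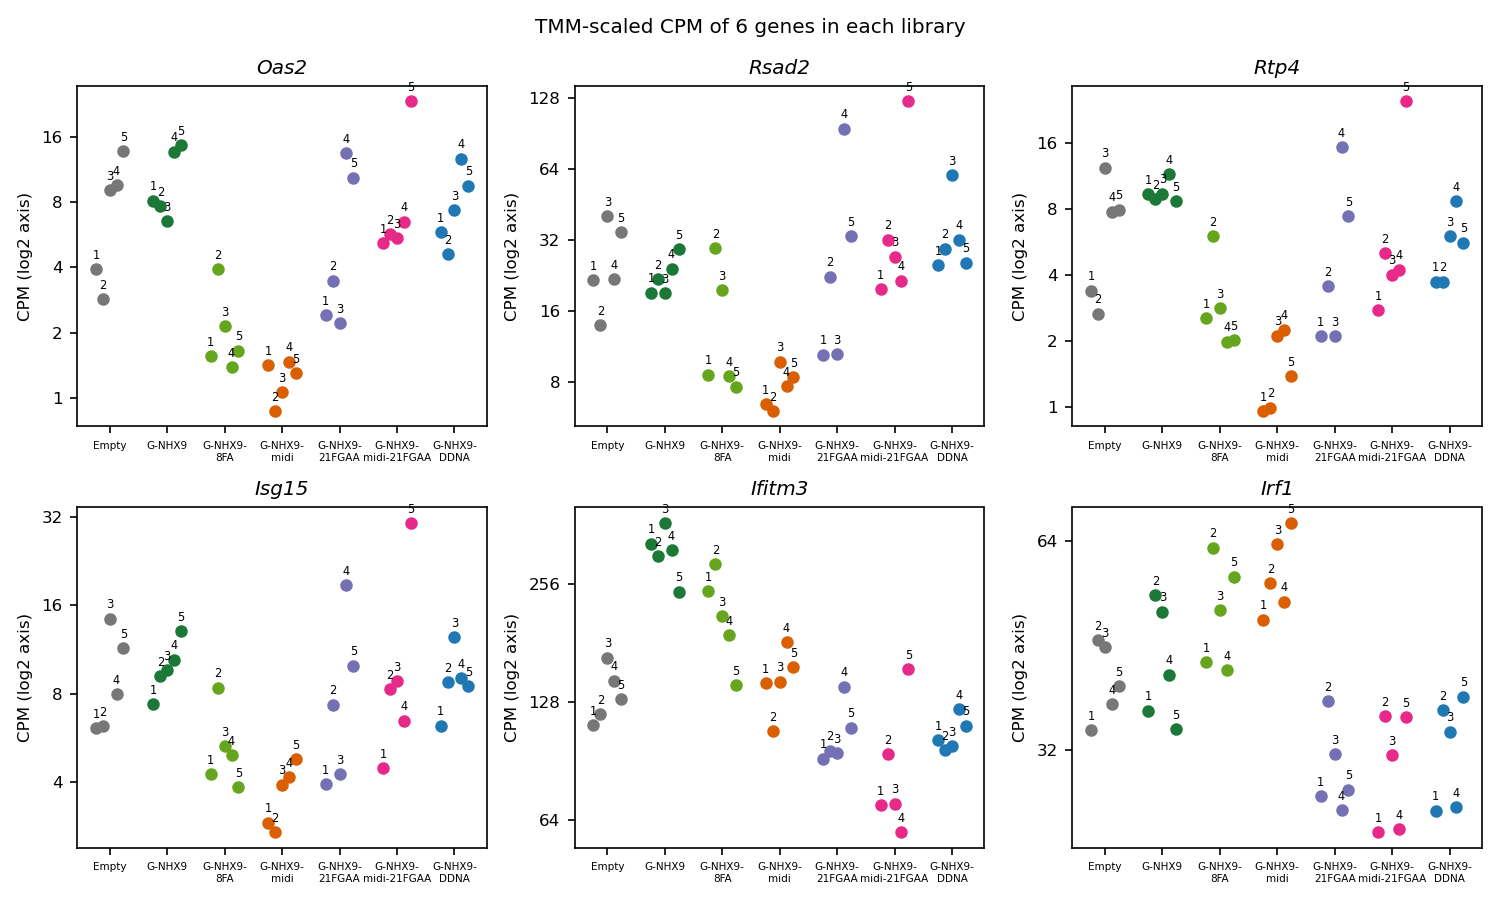
TMM-scaled CPM (vertical axis, log2 scale) of Oas2, Rsad2, Rtp4, Isg15, Ifitm3 and Irf1 in each library by group; numbers are replicate numbers. In G-NHX9-midi, Oas2 lies between 0.870 and 1.47 CPM, below the groups other than G-NHX9-8FA, while Irf1 lies between 49.3 and 67.9 CPM; G-NHX9-midi-21FGAA replicate 5 is the highest point for Oas2, Rsad2, Rtp4 and Isg15.

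In G-NHX9-21FGAA against Empty, 1 member rose and 1 fell, where 14.7% of all genes were called higher and 12.5% lower. Samd9l was at 191, 102, 154, 90.2 and 143 CPM in Empty and at 238, 196, 192, 264 and 173 CPM in G-NHX9-21FGAA, with a log2 difference of 0.64 (SE 0.21, adjusted p = 0.0235). Irf1 was at 27.5, 37.7, 31.6, 26.2 and 28.1 CPM and fell by 0.42 (SE 0.15, adjusted p = 0.031). Neither call held in every fit with 1 library left out: the count of higher members was 0 without Empty replicate 2, Empty replicate 4 or G-NHX9-21FGAA replicate 4, and that of lower members was 0 without G-NHX9-21FGAA replicate 1 or 5 or Empty replicate 2, 3 or 5. Without G-NHX9-21FGAA replicate 4, 2 members were lower. Without replicate 4 of G-NHX9-21FGAA and replicate 5 of G-NHX9-midi-21FGAA, 9 members were called lower and none higher. Among them were Ifit1 (log2 fold change -1.12, adjusted p = 0.0223) and Xaf1 (-0.71, adjusted p = 0.00625). These 2 libraries were left out for their high members, which by itself lowers their groups' members and narrows the spread. The calls without them show how far the result rests on them and are not a separate test. Neither of the 2 original calls was kept in that fit. With all libraries, 7 of 12 erythroid, 5 of 11 mast cell and basophil and 6 of 10 stem and progenitor markers were higher. So were 2 of 8 megakaryocyte and 1 of 8 eosinophil markers, and none of these was lower. Of 12 macrophage and monocyte markers 5 were lower, and of 9 conventional dendritic cell markers 4, with none higher. Of 12 neutrophil markers 4 were higher and 2 lower. The part of these markers was not tested.

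For G-NHX9-midi-21FGAA against Empty, the form without FG motifs, 1 member was higher and 1 lower, against 9.59% and 7.32% of all genes. Samd9l was higher at 238, 214, 196, 156 and 253 CPM (log2 fold change 0.64, SE 0.21, adjusted p = 0.0374). Ifitm3, at 69.6, 94.2, 70.3, 59.4 and 155 CPM, was lower by 0.58 on the log2 scale (SE 0.20, adjusted p = 0.037). Replicate 5 alone lay inside the Empty range for Ifitm3. Without that library and replicate 4 of G-NHX9-21FGAA, the decrease of Ifitm3 was 0.88 (adjusted p = 0.00166), 3 members were lower and Samd9l was no longer called. Both libraries were left out for their high members, which favours lower calls. Samd9l was not called without Empty replicate 2, 4 or 5 or G-NHX9-midi-21FGAA replicate 1, 2, 3 or 5. No member was lower without Empty replicate 3, 4 or 5 or G-NHX9-midi-21FGAA replicate 1, 3 or 4, and 2 were lower without Empty replicate 1, G-NHX9 replicate 5, G-NHX9-DDNA replicate 1 or G-NHX9-midi-21FGAA replicate 2. Replicate numbers paired the libraries in this comparison. With the block 2 members were lower, the second being Irf1 (-0.42, adjusted p = 0.00169, and -0.41 with adjusted p = 0.0506 without it). Of the markers, 10 of 12 erythroid, 5 of 11 mast cell and basophil and 4 of 10 stem and progenitor markers were higher. So was 1 of 8 eosinophil markers, and none of these was lower. Of 12 neutrophil markers 2 were lower, and of 12 macrophage and monocyte markers 1, with none higher. The part of these markers was not tested.

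With the DNA-binding mutant G-NHX9-DDNA, none of the 37 members was called in either direction against Empty by edgeR's quasi-likelihood test, where 9.85% of all genes were higher and 7.35% lower. At an unadjusted p under 0.05 there were 3 members, and DESeq2 also called 0. Without Empty replicate 1, or without G-NHX9-DDNA replicate 5, 1 member was higher. Replicate numbers paired these libraries too, and with the block Samd9l was called higher (0.53, adjusted p = 0.044) and Irf1 lower (-0.33, adjusted p = 0.00838). Log2 fold changes ran from -0.54 to 0.67, with a median of -0.18. In this comparison 3 of 12 erythroid and 2 of 8 eosinophil markers were higher, and none lower. Of 12 neutrophil markers 6 were higher and 2 lower, and of 10 stem and progenitor markers 4 were higher and 1 lower. Of 12 macrophage and monocyte markers 3 were lower and none higher.

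Against full-length G-NHX9, 4 of the mutants were compared, all but G-NHX9-midi-21FGAA. G-NHX9-8FA had 7 lower and none higher, where 8.04% of all genes were lower and 6.43% higher. Those 7 were Irf7, Dhx58, Oas2, Oas3, Oasl1, Oasl2 and Rtp4. Oas2 stood at 8.12, 7.66, 6.55, 13.7 and 14.6 CPM in G-NHX9 and at 1.56, 3.91, 2.14, 1.39 and 1.65 CPM in G-NHX9-8FA, with a log2 difference of -2.23 (SE 0.50, adjusted p = 0.00218). Oas3 stood at 45.1, 48.9, 49.3, 71.5 and 71.7 CPM in G-NHX9, and was lower by 1.88 in G-NHX9-8FA (SE 0.38, adjusted p = 0.000929). Neither gene's groups overlapped, and the same was true of 9 members in all, against 5.69% of all genes. Dhx58, at 15.1, 20.6, 16.3, 14.8 and 15.2 CPM, was lower by 0.53 (SE 0.17, adjusted p = 0.027). Oas2, Oas3 and Oasl2 were the calls that held in each fit with 1 library left out. The count fell to 4 without G-NHX9-8FA replicate 1 or 4 or G-NHX9 replicate 4 or 5. It rose to 12 without G-NHX9-midi-21FGAA replicate 5, a library outside this comparison that entered the shared estimate of spread. All 12 erythroid, 7 of 8 eosinophil, 5 of 8 megakaryocyte, 5 of 12 macrophage and monocyte and 2 of 4 plasmacytoid dendritic cell markers were lower than in G-NHX9, and 5 of 12 neutrophil markers and 1 macrophage marker were higher. Of 9 conventional dendritic cell markers 4 were lower and 2 higher, and of 10 stem and progenitor markers 5 were lower and none higher. Their part in the differences was not tested.

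G-NHX9-midi had 23 lower members and 1 higher than G-NHX9, where 11.2% of all genes were lower and 8.50% higher. The median over the 37 was -0.89, against 0.00 over all genes. In 21 members all 5 libraries of G-NHX9-midi lay below all 5 of G-NHX9, which was so for 7.65% of all genes. Oas2 was lower by 3.04 (SE 0.52, adjusted p = 5.9e-05), from 6.55 to 14.6 CPM in G-NHX9 down to 0.870 to 1.47 CPM. Rtp4 held 9.34, 8.86, 9.39, 11.5 and 8.69 CPM in G-NHX9, and was lower by 2.64 in G-NHX9-midi (SE 0.56, adjusted p = 0.000861). All of the 7 members that were lower in G-NHX9-8FA were also lower in G-NHX9-midi; both comparisons share the G-NHX9 libraries. The single gene higher than in G-NHX9 was Irf1 (log2 fold change 0.42, SE 0.15, adjusted p = 0.0409), and it was not called without G-NHX9 replicate 1, 4 or 5 or G-NHX9-midi replicate 2, 3 or 5. With any 1 library left out, 16 of the 24 calls held. The 13 without a call were Stat2, Ddx58, Ifih1, Zbp1, Ifit3b, Oas1g, Herc6, Samd9l, Trim30a, Ifi44, Ifi35, Parp14 and Cxcl10. Among the markers, 11 of 12 erythroid (median log2 fold change -4.41), all 8 eosinophil, all 8 megakaryocyte, 6 of 12 macrophage and monocyte and 2 of 4 plasmacytoid dendritic cell markers were lower, and 3 of 12 neutrophil markers were higher and 3 lower. Of 9 conventional dendritic cell markers 5 were lower and 1 higher, and of 10 stem and progenitor markers 5 were lower and 1 higher. Their part in the members' differences was not tested.

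G-NHX9-21FGAA and G-NHX9-DDNA each had 7 lower members and none higher than G-NHX9. The backgrounds were 8.34% lower and 8.91% higher of all genes for G-NHX9-21FGAA, and 11.4% lower and 10.7% higher for G-NHX9-DDNA. The 7 genes were Irf1, Irf9, Ifih1, Dhx58, Ifitm3, Bst2 and Ifi35 in both comparisons, which share the G-NHX9 libraries as their reference. Ifitm3 had 91.8, 96.1, 94.7, 140 and 110 CPM in G-NHX9-21FGAA and 102, 96.5, 98.6, 123 and 111 CPM in G-NHX9-DDNA. All 10 values lay below the lowest G-NHX9 library at 245 CPM. The log2 fold changes of Ifitm3 were -1.54 (SE 0.20, adjusted p = 5.09e-07) and -1.55 (SE 0.20, adjusted p = 3.82e-07). Dhx58 was lower by 0.71 in G-NHX9-21FGAA (SE 0.17, adjusted p = 0.00209), at 11.2, 14.5, 12.9, 20.4 and 13.4 CPM.

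Bst2 had 90.0, 91.5, 105, 98.3 and 68.3 CPM in G-NHX9 and 48.7, 55.0, 55.5, 58.9 and 59.6 CPM in G-NHX9-DDNA, where it was lower by 0.71 (SE 0.18, adjusted p = 0.00404). It was 1 of 5 members whose libraries all lay below those of G-NHX9, against 7.21% of all genes. Ifi35, a partner of NMI in innate signalling, ran at 29.8, 33.9, 37.1, 32.2 and 27.9 CPM in G-NHX9. In G-NHX9-21FGAA it ran at 20.0, 28.0, 24.4, 31.7 and 25.7 CPM and was lower by 0.31 (SE 0.11, adjusted p = 0.0389). In G-NHX9-DDNA it ran at 22.4, 27.2, 26.3, 23.6 and 23.7 CPM, lower by 0.38 (SE 0.11, adjusted p = 0.00773).

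Replicate numbers paired the libraries in both comparisons. With the block, G-NHX9-21FGAA had 11 lower members, the added ones being Stat2 (-0.56, adjusted p = 0.0022), Oas1g (-0.70, adjusted p = 0.0418), Oas3 (-0.97, adjusted p = 0.0142) and Xaf1 (-0.67, adjusted p = 0.0467). For G-NHX9-DDNA the block added Stat2 (-0.41, adjusted p = 0.0185). Without G-NHX9-21FGAA replicate 4 the count in G-NHX9-21FGAA was 11, and it was 3 without G-NHX9 replicate 2 and 4 without G-NHX9 replicate 1 or G-NHX9-21FGAA replicate 2, 3 or 5. Without G-NHX9-21FGAA replicate 4 and G-NHX9-midi-21FGAA replicate 5 together it was 19, with all of the first 7 kept. Those libraries were left out for their high members, which favours lower calls. Dhx58, Ifitm3 and Bst2 held in every fit with 1 library left out in both comparisons, and Ifi35 in that with G-NHX9-DDNA. Erythroid markers were higher than in G-NHX9 in both groups (10 of 12 in each), as were mast cell and basophil markers (9 of 11 and 8 of 11), eosinophil markers (7 of 8 and 8 of 8) and all 8 megakaryocyte markers. Macrophage and monocyte markers were lower for 6 of 12 in G-NHX9-21FGAA (1 higher, median log2 fold change -0.64) and for 7 of 12 in G-NHX9-DDNA (2 higher, median -0.69). Plasmacytoid dendritic cell markers were lower for 3 of 4 tested in G-NHX9-21FGAA (median -1.83) and for 4 of 4 in G-NHX9-DDNA (median -1.85). Against Empty, 1 of these 4 (Cox6a2) was lower in each of the 2 groups (medians -0.44 and -0.31). Pacsin1 and Tcf4 were higher in G-NHX9 than in Empty. Of 9 conventional dendritic cell markers, 3 were lower and 1 higher in G-NHX9-21FGAA, and 2 lower and 1 higher in G-NHX9-DDNA. Of 10 stem and progenitor markers, 3 were lower and 3 higher, and 4 lower and 2 higher. The part of these markers in the differences was not tested.

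Removing the FG motifs from the shorter fusion went with higher members: 22 were higher and 2 lower in G-NHX9-midi-21FGAA than in G-NHX9-midi, where 21.0% of all genes were higher and 22.2% lower. The median over the 37 was 0.67, against -0.02 over all genes. All 14 members that were lower in G-NHX9-midi than in Empty were among the 22, and the 2 comparisons share the G-NHX9-midi libraries. Oas2 went from 1.42, 0.870, 1.06, 1.47 and 1.30 CPM in G-NHX9-midi to 5.17, 5.70, 5.46, 6.49 and 23.3 CPM. The log2 fold change was 2.91 (SE 0.52, adjusted p = 2.52e-05), and the lowest G-NHX9-midi-21FGAA library was well above the highest G-NHX9-midi library. Rsad2 went from 6.03 to 9.76 CPM across G-NHX9-midi to 19.7, 32.0, 27.1, 21.5 and 123 CPM, at a log2 difference of 2.55 (SE 0.53, adjusted p = 0.000188). Both genes were apart in all 5 libraries, with replicate 5 far above the other 4.

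The 2 members that were lower were Irf1 and Ifitm3. Irf1 was at 24.4, 35.8, 31.5, 24.6 and 35.7 CPM in G-NHX9-midi-21FGAA, below every G-NHX9-midi library, with a log2 difference of -0.92 (SE 0.15, adjusted p = 4.72e-06). Ifitm3 was lower by 0.71 (SE 0.20, adjusted p = 0.00357), with replicate 5 inside the G-NHX9-midi range. Groups did not overlap for 10 of the higher members and 1 of the lower, against 14.2% and 15.9% of all genes.

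Part of these calls rested on replicate 5 of G-NHX9-midi-21FGAA. Without it, 13 members were higher and 4 lower. Without it and G-NHX9-21FGAA replicate 4, the counts were again 13 and 4, and 15 of the 24 calls were kept. Oas2 then had a log2 fold change of 2.23 (adjusted p = 0.000124), Rsad2 of 1.72 (adjusted p = 0.000329), Oasl1 of 1.65 (adjusted p = 0.000266) and Rtp4 of 1.40 (adjusted p = 0.00641). Irf7, Ifit2, Ifit3, Ifit3b, Mx1, Samd9l, Trim30a, Ifi44 and Xaf1 were no longer called, and Ifih1 and Cxcl10 were added as lower. Leaving out a library for its high members favours lower calls. Marker genes of other lineages moved with the comparison. All 12 erythroid, all 11 mast cell and basophil, all 8 eosinophil and all 8 megakaryocyte markers were higher in G-NHX9-midi-21FGAA. Of 12 neutrophil markers 8 were lower and 2 higher, with a median log2 fold change of -1.01. Of 9 conventional dendritic cell markers 6 were higher and 1 lower, and of 10 stem and progenitor markers 7 were higher and 2 lower. Of 12 macrophage and monocyte markers 4 were higher and 2 lower, and the macrophage and monocyte sum was 19231 to 24680 CPM against 7423 to 16425 CPM. Their part in the members' differences was not tested.

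The effect of changing the FG pairs differed between the shorter and the full-length fusion for 16 members. This is the difference between G-NHX9-midi-21FGAA against G-NHX9-midi and G-NHX9-21FGAA against G-NHX9, tested as 1 term in the same model, where 7.43% of all genes were called higher in the shorter context and 5.20% lower. All 16 were higher and none lower. Oas2 gave the largest difference, 3.58 (SE 0.70, adjusted p = 0.000539), made of 2.91 in the shorter form and -0.66 in full length. Rtp4 gave 3.06 (SE 0.76, adjusted p = 0.00585), from 2.42 and -0.64. For Ifitm3 both effects were negative, -0.71 and -1.54, and their difference was 0.83 (SE 0.28, adjusted p = 0.0408). The count was 7 without G-NHX9-midi-21FGAA replicate 5 and 24 without G-NHX9-21FGAA replicate 4. It was 9 without G-NHX9-21FGAA replicate 1 or 3 and 10 without G-NHX9-midi replicate 2. Without both of the high libraries, which were picked from the members' own values, it was 21, of which 15 were among the 16. Oas1a, Oas2, Oas3, Oasl1, Oasl2, Xaf1 and Rtp4 were called in every fit with 1 library left out. By the same difference, 10 of 12 erythroid (median 4.65), all 8 eosinophil and 5 of 8 megakaryocyte markers were higher. So were 7 of 12 macrophage and monocyte, 4 of 9 conventional dendritic cell and 2 of 11 mast cell and basophil markers. None of these was lower. Of 12 neutrophil markers 2 were higher and 2 lower, and of 10 stem and progenitor markers 4 were higher and 1 lower. Their part in the members' differences was not tested.

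Of the 4 transcription factors of the set, 3 were called at least once. Irf1 was called in 6 comparisons, higher in G-NHX9-midi than in Empty and G-NHX9, and lower in G-NHX9-21FGAA than in Empty and in each of 3 mutants than in its parent form. Irf7 was at 22.3, 24.3, 27.0, 25.1 and 30.1 CPM in G-NHX9 and 10.1, 10.8, 11.3, 13.5 and 12.5 CPM in G-NHX9-midi, with a log2 difference of -1.14 (SE 0.31, adjusted p = 0.00723). It was also lower in G-NHX9-8FA than in G-NHX9 (-0.92, adjusted p = 0.0378), and was higher in G-NHX9-midi-21FGAA than in G-NHX9-midi (0.89, adjusted p = 0.0172). The latter call was lost without replicate 5 of G-NHX9-midi-21FGAA and replicate 4 of G-NHX9-21FGAA. Irf9, the DNA-contacting part of ISGF3, was lower than in G-NHX9 in G-NHX9-midi (-0.43, adjusted p = 0.0244), G-NHX9-21FGAA (-0.43, adjusted p = 0.0243) and G-NHX9-DDNA (-0.45, adjusted p = 0.0147).

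Stat2 was called in none of the 12 tests, and its spread followed the replicate number. The library numbered 1 was the lowest of 5 in all 7 groups. These 7 libraries held 20.9 to 33.5 CPM of Stat2, and the other 28 held 33.0 to 88.7 CPM. In the blocked fit Stat2 was called in 5 of the 11 comparisons and in the difference between the FG effects. The labels do not say what a replicate number stands for.

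**Figure D5:**
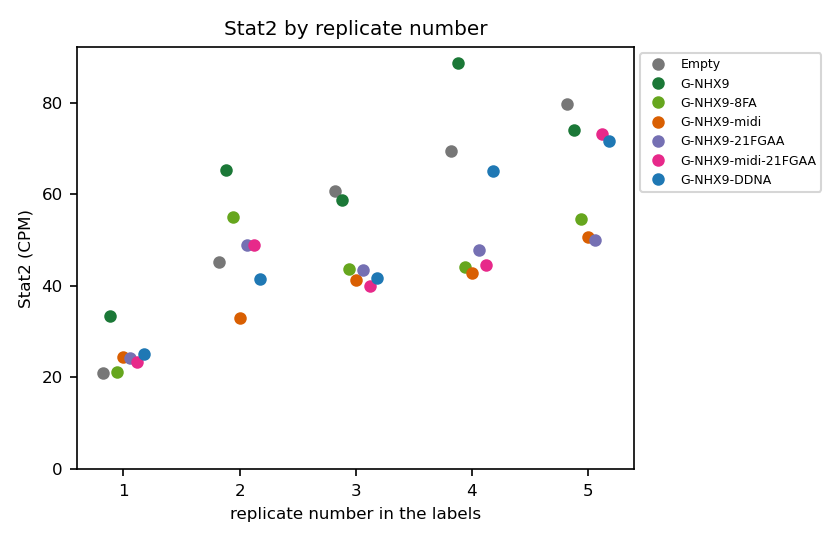
Stat2 CPM (vertical axis, from 0) by replicate number (horizontal axis), 1 point per library, coloured by group. The 7 libraries numbered 1 lie at 20.9 to 33.5 CPM, and the others at 33.0 to 88.7 CPM.

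Among the 5 sensors, which detect viral nucleic acid in the cytoplasm, Dhx58 was the only one called against Empty. It was higher in G-NHX9, as were 16.9% of all genes. Dhx58 was lower than in G-NHX9 in G-NHX9-8FA, G-NHX9-midi, G-NHX9-21FGAA and G-NHX9-DDNA. In G-NHX9-midi, G-NHX9-21FGAA and G-NHX9-DDNA, 2 of the 5 sensors were lower than in G-NHX9, against 11.2%, 8.34% and 11.4% of all genes. Ddx58 (RIG-I) and Zbp1, a sensor of Z-form nucleic acid, were called in no comparison, and Ifih1 (MDA5) was lower than in G-NHX9 in G-NHX9-21FGAA (-0.49, adjusted p = 0.0264) and G-NHX9-DDNA (-0.56, adjusted p = 0.00835). Eif2ak2 (PKR), the kinase that stops translation, was lower in G-NHX9-midi than in G-NHX9 (-0.53, adjusted p = 0.0044) and was higher in G-NHX9-midi-21FGAA than in G-NHX9-midi (0.44, adjusted p = 0.00738). Ddx58, Zbp1, Stat2, Oas1g, Herc6 (the Isg15 ligase) and Parp14 were the 6 members that passed the test nowhere. Cmpk2, the neighbour of Rsad2 that supplies its nucleotide substrate, had 3.23, 4.11, 4.62, 4.15 and 4.53 CPM in G-NHX9-midi and 7.82, 9.54, 7.91, 9.74 and 31.9 CPM in G-NHX9-midi-21FGAA, with a log2 difference of 1.70 (SE 0.39, adjusted p = 0.000599). Mx1 (-0.84, adjusted p = 0.0386) was lower in G-NHX9-midi than in G-NHX9. Ifi44 was the least expressed member, between 0.0587 and 2.34 CPM over all libraries, and was called once, higher in G-NHX9-midi-21FGAA than in G-NHX9-midi (1.94, adjusted p = 0.0307). Replicate 5 of G-NHX9-midi-21FGAA held the 2.34 CPM, and the other 4 libraries of that group at most 0.256 CPM. Without that library and G-NHX9-21FGAA replicate 4, the call was lost.

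Of the 12 members with an ISRE core, 6 were lower in G-NHX9-midi than in Empty, with a median log2 fold change of -0.92. Of the 17 matched members without one, 4 were lower and 1 higher, with a median of -0.26, and of the 8 members not matched 4 were lower, with a median of -0.92. Over all genes tested, 20.0% were lower in this comparison. Against G-NHX9, G-NHX9-midi had 7 of the 12 lower, and 10 of the 17 lower and 1 higher, where 11.2% of all genes were lower. In G-NHX9-21FGAA and in G-NHX9-DDNA against G-NHX9, 1 of the 12 and 5 of the 17 were lower (8.34% and 11.4% of all genes). In G-NHX9-midi-21FGAA against G-NHX9-midi, 8 of the 12 were higher, and 9 of the 17 higher and 2 lower (21.0% and 22.2% of all genes). These are descriptions of 3 small sets that share libraries, and no test was made between them.

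Elsewhere in the pathway, calls went in both directions. Of 6 receptor genes tested in G-NHX9-midi against Empty, Ifnar2, a chain of the type I receptor, was higher (log2 fold change 0.25, adjusted p = 0.0248), while Ifngr2 (-0.33) and Ifnlr1 (-3.56) were lower. Among 9 genes of JAK-STAT and IRF signalling, Jak2 was higher (0.33) and Jak1 lower (-0.25). Of 11 adaptors and kinases of the sensing pathways, 5 were lower, among them Tlr3 (-2.32), the endosomal receptor for double-stranded RNA, and Mavs (-0.71), the adaptor of RIG-I and MDA5. Another 3 were higher, among them Ikbke (0.81). Of 7 negative regulators, 4 were higher and none lower: Socs3 (0.72, adjusted p = 6.6e-06), Ptpn2 (1.32, adjusted p = 8.2e-08), Ptpn6 and Irf2bp2. In G-NHX9-midi-21FGAA against G-NHX9-midi, Socs3 (-0.65) and Ptpn2 (-0.95) were lower. Several of these calls were not particular to G-NHX9-midi. In G-NHX9 against Empty, where no member was lower, Ifngr2, Ifnlr1, Jak1, Tlr3 and Mavs were lower too. There 4 adaptors and kinases were lower and 3 higher, and 1 negative regulator was higher. In G-NHX9-8FA against Empty, Ifnlr1, Tlr3 and Mavs were lower, while Ifnar2, Ikbke, Ptpn2 and Socs3 were higher. Over all genes, 20.0% were lower and 20.5% higher in G-NHX9-midi against Empty.

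MHC class I presentation genes were also measured. In G-NHX9-midi against Empty, 5 of 10 were higher and 1 lower, where 20.5% of all genes were higher and 20.0% lower. The higher were Psmb8, Psmb9 and Psmb10 of the immunoproteasome and the peptide transporters Tap1 and Tap2. In G-NHX9 against Empty, 3 of 10 were higher (Psmb8, Tap1 and Tap2) and 1 lower, against 16.9% and 15.2% of all genes. In G-NHX9-8FA, 3 were higher (Psmb8, Psmb9 and Tap2) and none lower, against 13.4% and 13.2%. Tap1 was at 68.8, 65.2, 83.3, 80.5 and 71.8 CPM in Empty and at 109, 108, 103, 91.5 and 113 CPM in G-NHX9-midi, with a log2 difference of 0.50 (SE 0.09, adjusted p = 4.54e-05). In G-NHX9-midi-21FGAA against G-NHX9-midi, 8 of the 10 were lower and none higher, where 22.2% of all genes were lower and 21.0% higher. Tap1 was at 57.2, 66.2, 60.9, 59.6 and 66.6 CPM (log2 fold change -0.75, SE 0.09). Replicate 5 of G-NHX9-midi-21FGAA, which was highest for 36 members, was thus close to the other 4 libraries for Tap1. In G-NHX9-21FGAA against Empty, 7 of 10 were lower, including B2m (-0.70) and H2-K1 (-0.60), and none higher. The shares of all genes were 12.5% lower and 14.7% higher. Against Empty, 4 of 10 were lower in G-NHX9-midi-21FGAA and 5 of 10 in G-NHX9-DDNA, and none higher. There, 7.32% and 7.35% of all genes were lower.

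Some members share reads with near copies, and their separate values are uncertain. Of the stretches of 100 bases along the exons, 31.7% of Ifit3 (chr19:34583531-34588731) recur in Ifit3b (chr19:34607970-34613401), and 40.9% of Oas1a (chr5:120896256-120907521) recur in Oas1g (chr5:120876142-120887613), in build GRCm38. The copies also have the same 60 bases around their core in the Ifit pair. Herc6 and Rtp4 overlap another annotated gene on the same strand over 10.3% and 9.28% of such stretches. Several members overlap a gene on the opposite strand (among them Irf7, Dhx58, Usp18 and Cxcl10). The libraries were strand-specific, but the strand setting used in counting is not given in the sources used here, so reads of such pairs may not be separated. Mx2 is annotated as a polymorphic pseudogene in this strain's reference.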

How the data were processed

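Total RNA of 35 libraries had been prepared with a stranded kit after sorting and culture. The authors deposited 1 table of raw read counts per gene; per the submitters' processing notes, STAR 2.7.0d, HTSeq 0.11.2 and DESeq2 were used with build mm10, and neither the annotation release nor the strand setting is given in the sources used here. Groups and replicate numbers were taken from the sample labels. The members and all gene lists were chosen with earlier results of these data known.

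From the deposited counts, genes passing filterByExpr (17166 of 49671, holding 99.96% of counts) were scaled by TMM and fitted in 1 model over all 35 libraries with edgeR 4.0.16 (R 4.3.3; quasi-likelihood test, two-sided). Benjamini-Hochberg adjustment ran over all genes in each of 12 tests, with a threshold of 0.05. Library totals were 31559914 to 75810659 counts, where 3 counts are the limit for a gene at 0. The closest 2 libraries of a group differed by 22.5 times the chi-square expected from counting, so no column was a copy of another. This does not show that libraries came from separate cultures or animals. The method was tested on simulated data.

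Named genes were, per comparison, the 2 highest and 2 lowest log2 fold changes among calls averaging 5 CPM or more in the compared groups, and the 4 transcription factors; other values stand in for their role group. Pairing was checked by correlating deviations from group means between same-numbered libraries: all 5 pairs exceeded 0.1 in G-NHX9, G-NHX9-midi-21FGAA and G-NHX9-DDNA against Empty and in G-NHX9-21FGAA and G-NHX9-DDNA against G-NHX9. Over all groups the mean was 0.232, against -0.057 for other numbers. Gene positions and 100-base stretches come from GENCODE M21 (GRCm38), and promoters from RefSeq. Alternatives were other scaling (none, RLE), other filters (none, a mean of 1 CPM), the replicate block, only the compared groups, each library left out, and DESeq2 1.42.0. Leaving out sets of libraries was added after seeing the data. One gene of the signalling lists is not reported here.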

Additional observations from a re-analysis of the deposited data

Results flagged for a closer look

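Single libraries lay far from the other 4 of their group in 47 of 259 sets of 5 values (37 genes in 7 groups), or 18.1%, by Dixon's ratio of the gap to the range above 0.71. For independent, normally distributed values this limit is passed in about 1 set in 20. The ratio was taken on CPM without a log scale, the sets share libraries, and 27 of the 47 came from G-NHX9-midi-21FGAA replicate 5. The 18.1% can therefore not be read against that rate. In 45 of the 47 the library was the highest and in 2 the lowest. G-NHX9-midi-21FGAA replicate 5 was the highest of its group, in CPM, for Irf7 at 51.2, Ddx58 at 101, Dhx58 at 23.3, Zbp1 at 27.3, Ifit1 at 37.5, Ifit2 at 35.3, Ifit3 at 14.3, Ifit3b at 3.07, Oas1a at 46.6, Oas1g at 11.3, Oas2 at 23.3, Oas3 at 80.7, Oasl1 at 5.52, Oasl2 at 36.8, Isg15 at 30.5, Usp18 at 44.2, Herc6 at 30.5, Mx1 at 10.03, Mx2 at 6.47, Rsad2 at 123, Cmpk2 at 31.9, Isg20 at 13.2, Trim30a at 103, Ifi44 at 2.34, Xaf1 at 13.98, Rtp4 at 24.8 and Parp14 at 152. G-NHX9-21FGAA replicate 4 was the highest of its group, in CPM, for Ifit1 at 18.5, Ifit3 at 10.6, Ifit3b at 2.20, Mx1 at 7.56, Mx2 at 4.21, Rsad2 at 94.4, Trim30a at 81.6 and Ifi44 at 1.35. G-NHX9-8FA replicate 2 was the highest of its group, in CPM, for Irf7 at 20.03, Dhx58 at 20.6, Oasl2 at 10.3 and Rtp4 at 6.0002. G-NHX9-DDNA replicate 4 was the highest of its group, in CPM, for Oasl1 at 2.45 and Mx1 at 5.68. G-NHX9-midi replicate 3 was the highest of its group, in CPM, for Ifit2 at 12.2 and Oasl1 at 0.716. G-NHX9 replicate 4 was the highest of its group, in CPM, for Rtp4 at 11.5. G-NHX9-21FGAA replicate 1 was the lowest of its group, in CPM, for Stat2 at 24.3. G-NHX9-DDNA replicate 3 was the highest of its group, in CPM, for Rsad2 at 59.9. G-NHX9-midi replicate 2 was the lowest of its group, in CPM, for Usp18 at 2.49.

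The effect of changing the FG pairs differed between the shorter and the full-length fusion for 16 members, by edgeR's quasi-likelihood test of the difference itself (Benjamini-Hochberg adjusted p below 0.05). The differences in log2 fold change, shorter minus full length, were Dhx58 (0.69), Ifit1 (2.58), Ifit2 (1.63), Oas1a (1.18), Oas2 (3.58), Oas3 (2.44), Oasl1 (2.42), Oasl2 (2.80), Isg15 (1.83), Usp18 (2.01), Mx2 (1.74), Cmpk2 (1.76), Ifitm3 (0.83), Trim30a (0.82), Xaf1 (1.30) and Rtp4 (3.06). Cell type markers also differed by this term, and their part was not tested.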

How the results depend on the processing

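No difference in a named gene reversed its direction under any alternative. Of 111 called differences, 64 were kept whichever single library was left out. The cause of the changes below was not tested. The libraries with high members were picked from the members' own values, and leaving them out moves the members of their own group down.

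Without TMM, 9 members were higher in G-NHX9, 2 in G-NHX9-midi, 2 in G-NHX9-21FGAA, 2 in G-NHX9-midi-21FGAA and 1 in G-NHX9-DDNA than in Empty, 0 were lower in G-NHX9-21FGAA and 0 in G-NHX9-midi-21FGAA than in Empty, and against G-NHX9, 13 were lower in G-NHX9-8FA and 0 higher in G-NHX9-midi. In G-NHX9-midi-21FGAA against Empty 2 were lower with RLE factors, with a mean of at least 1 CPM, with DESeq2 and with the replicate block. With no filter, 0 were lower in G-NHX9-21FGAA and 0 in G-NHX9-midi-21FGAA than in Empty, and against G-NHX9, 0 were higher in G-NHX9-midi and 4 lower in G-NHX9-21FGAA. The replicate block also gave 1 higher and 1 lower in G-NHX9-DDNA against Empty, 11 lower in G-NHX9-21FGAA against G-NHX9 and 1 lower for the difference of the FG effects; all 111 calls were kept under it. With only the compared groups, 5 were higher in G-NHX9, 0 lower in G-NHX9-midi-21FGAA and 1 lower in G-NHX9-DDNA than in Empty, and against G-NHX9, 12 were lower in G-NHX9-8FA, 4 in G-NHX9-21FGAA and 0 higher in G-NHX9-midi.

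Without the 2 libraries with the highest member levels, against Empty 9 were lower in G-NHX9-8FA, 2 higher in G-NHX9-midi, 0 higher and 9 lower in G-NHX9-21FGAA, and 0 higher and 3 lower in G-NHX9-midi-21FGAA; against G-NHX9, 15 were lower in G-NHX9-8FA and 19 in G-NHX9-21FGAA; against G-NHX9-midi, 13 were higher and 4 lower in G-NHX9-midi-21FGAA. Without Empty replicate 3 and G-NHX9-8FA replicate 2 as well, these became, against Empty, 9 higher in G-NHX9, 10 lower in G-NHX9-8FA, 2 higher in G-NHX9-midi, 0 higher in G-NHX9-21FGAA and 0 in G-NHX9-midi-21FGAA, then 21 and 23 lower than in G-NHX9, and 14 higher and 4 lower than in G-NHX9-midi. Without the libraries numbered 1, 1 was higher in G-NHX9-8FA, 2 in G-NHX9-midi and 0 lower in G-NHX9-midi-21FGAA than in Empty, and against G-NHX9, 4 were lower in G-NHX9-8FA, 4 in G-NHX9-21FGAA, 4 in G-NHX9-DDNA and 0 higher in G-NHX9-midi.

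With 1 library left out, the members higher and lower than in Empty ranged from 1 to 5 and 0 to 0 in G-NHX9, 2 to 2 and 2 to 5 in G-NHX9-8FA, 1 to 2 and 12 to 16 in G-NHX9-midi, 0 to 1 and 0 to 2 in G-NHX9-21FGAA, 0 to 1 and 0 to 2 in G-NHX9-midi-21FGAA, and 0 to 1 and 0 to 0 in G-NHX9-DDNA. Against G-NHX9 the lower members ranged from 4 to 12 in G-NHX9-8FA, 17 to 25 in G-NHX9-midi (higher 0 to 1), 3 to 11 in G-NHX9-21FGAA and 5 to 8 in G-NHX9-DDNA. Against G-NHX9-midi they ranged from 13 to 22 higher and 2 to 4 lower, and the difference of the FG effects from 7 to 24 higher. Genes at a few CPM, and the interferon ligands, are where depth limits a call.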
